A study of Mus musculus with 8 samples.

Results

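The suppressors of cytokine signalling are 8 related feedback inhibitors, Cish and Socs1 to Socs7, and their transcripts were followed here in mouse ovarian tumours after a JAK inhibitor. The genes were taken by name from the array files. All 8 were present among 31829 gene names, as 12 of the 39429 probes that were not controls and 21 of the 43020 spots. Socs2 and Socs6 had 3 probes each and the other 6 genes had 1. All 12 probes were well above background on all 8 arrays, none was saturated, and all passed the filter on dim probes, which kept 28329 probes.

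Tumours came from 8 female C57BL/6JTgMISIIR-TAg mice, in which SV40 T antigen is driven by the promoter of Amhr2, the gene for the type II receptor of Müllerian inhibiting substance. The transgene was shared by both groups. At a tumour size of about 500 mm3, 4 mice received AZD1480, an inhibitor of JAK1 and JAK2, at 30 mg/kg in 0.5% hypermellose with 0.1% Tween 80. The other 4 received that vehicle without the drug, and tissue was collected 6 h later. Every tumour had an array of its own, in 1 colour, and each of the 2 slides held replicates 1 and 2 or replicates 3 and 4 of both groups. The comparison addressed which SOCS family transcripts differ soon after JAK inhibition.

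Cytokines such as interleukin 6, interferons and growth hormone bind receptors that carry JAK kinases, and the kinases phosphorylate STAT transcription factors. STATs then switch on a few SOCS genes, whose proteins bind the receptor or the kinase through an SH2 domain and shut the signal down. A SOCS box at the C terminus joins elongins and a cullin to form a ubiquitin ligase. Cish, Socs1, Socs2 and Socs3 are the classical cytokine-induced members, whereas Socs4 to Socs7 are better known for binding growth factor receptors and adaptors.

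Promoter windows of Cish, Socs3, Socs1 and Socs4 were matched in RefSeq sequence of GRCm38.p6, 4 of the 8 genes. Each window held 250 bases before the annotated gene start and 50 after it, and was searched on both strands for TTCNNNGAA, the palindrome that STAT dimers bind, and for GAAA, any 2 bases and GAAA again, a core bound by interferon regulatory factors. The first 280 bases of the Cish, Socs3 and Socs1 windows are printed 5′ to 3′ on the gene's strand, because these are the members that classically respond to STATs and interferon. They lie at chr9:107296409-107296688 (plus strand), chr11:117969337-117969616 (minus strand) and chr16:10785507-10785786 (minus strand). Capitals mark the matches.
Cish: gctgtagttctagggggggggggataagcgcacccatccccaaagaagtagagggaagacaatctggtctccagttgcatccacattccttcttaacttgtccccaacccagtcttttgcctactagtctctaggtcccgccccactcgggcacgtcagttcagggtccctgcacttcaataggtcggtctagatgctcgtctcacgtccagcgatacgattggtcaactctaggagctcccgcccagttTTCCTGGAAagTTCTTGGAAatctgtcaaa
Socs3: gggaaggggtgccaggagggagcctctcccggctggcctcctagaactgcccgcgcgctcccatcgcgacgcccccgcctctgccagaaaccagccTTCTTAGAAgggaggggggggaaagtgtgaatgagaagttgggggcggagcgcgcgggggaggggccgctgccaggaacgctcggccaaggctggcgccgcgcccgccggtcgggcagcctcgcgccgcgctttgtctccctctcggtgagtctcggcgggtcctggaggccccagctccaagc
Socs1: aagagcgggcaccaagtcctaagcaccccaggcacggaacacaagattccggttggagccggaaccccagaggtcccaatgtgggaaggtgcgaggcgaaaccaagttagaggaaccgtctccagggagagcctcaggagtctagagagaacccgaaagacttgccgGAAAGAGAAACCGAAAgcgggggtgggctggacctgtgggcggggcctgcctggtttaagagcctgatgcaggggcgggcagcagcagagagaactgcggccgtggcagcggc
Cish held 2 STAT palindromes, TTCCTGGAA at bases 1 to 9 and TTCTTGGAA at bases 12 to 20 after the start. Socs3 held 1, TTCTTAGAA, at positions -154 to -146. Socs1 held no STAT palindrome and 2 overlapping interferon regulatory factor matches, GAAAGAGAAA at -83 to -74 and GAAACCGAAA at -77 to -68. The Socs4 window held neither motif. Of 32851 promoter windows of the same length, 8.30% held at least 1 STAT palindrome and 0.457% held at least 2. The interferon regulatory factor motif was in 3.44% of windows, and 0.225% held at least 2 matches. These matches describe letters in a window and were not tested as binding sites.

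Slide 1 arrays were brighter, with a 75th percentile of processed intensity of 4706 to 5795, while slide 2 arrays had 1587 to 2783, and 66.9% to 76.4% of spots were well above background. AZD1480 replicate 1 stood apart, with a mean correlation of 0.894 with the other arrays across kept probes, against 0.950 to 0.964 for the other 7. Its oviduct ciliated cell markers summed to 1.91 on the scale where an array's 75th percentile is 1, against 57.8 to 61.4 in the other AZD1480 tumours and 51.5 to 82.4 in vehicle tumours. All 13 ovarian epithelial markers passed the filter, and their summed level was 64.4 to 106 in AZD1480 tumours and 65.0 to 156 in vehicle tumours. In bulk tumour RNA, fewer cells of a type and less RNA per cell cannot be told apart. Family differences and the list medians printed below are also given without AZD1480 replicate 1 where leaving it out moved them by over 1.5 times. Medians of the remaining lists are not given.

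Socs3 was the SOCS family transcript with the clearest separation of the groups, and Socs2 had the largest positive differences. No member passed limma's test after Benjamini-Hochberg adjustment over all kept probes, with adjusted p from 0.953 to 0.994. Across all kept probes the called share was 0% as well, and the smallest adjusted p was 0.656. At an unadjusted p under 0.05, 1 of the 12 probes was lower in AZD1480 tumours (Socs3) and 0 were higher, where 1.62% of all kept probes were lower and 2.02% higher (3.64% in either direction). In 1 of the 12 probes, Socs3 again, all 4 AZD1480 arrays lay below all 4 vehicle arrays, as they did in 1.25% of kept probes. The differences of the 12 probes were negative in 5 and positive in 7, where 41.9% of all kept probes were negative. Their median was 0.039 on the log2 scale, beside 0.058 over all kept probes. Levels below are log2 processed intensities relative to the array's 75th percentile, differences are AZD1480 minus vehicle on that log2 scale, and a probe's level is not comparable with another probe's.

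**Figure D1:**
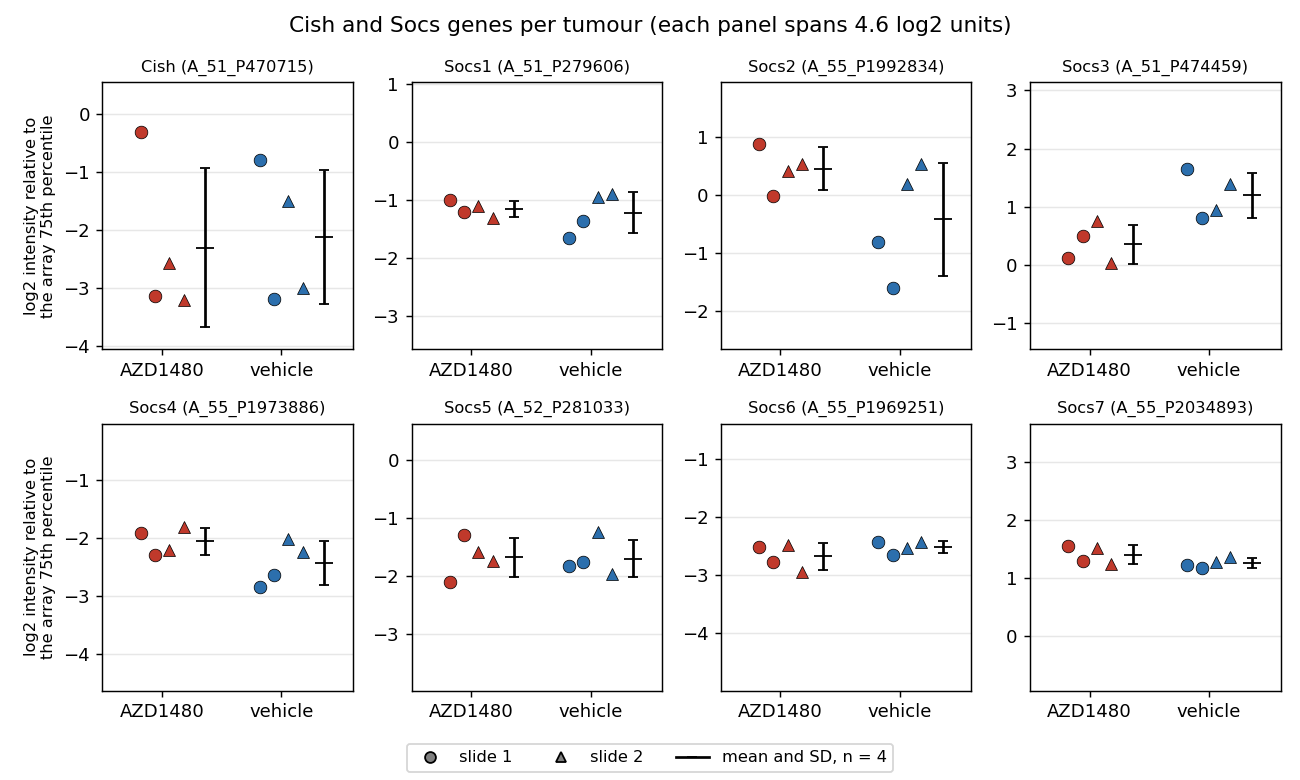
Scaled log2 intensity of 1 probe per gene (the brightest where there are several) in each tumour, with AZD1480 left of vehicle, marker shape for the slide, and the mean and SD of 4 arrays. The Socs3 groups do not overlap, Cish runs over 2.90 log2 units across the 8 tumours with high and low tumours in both groups, and Socs7 stays within 0.39.

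Socs3, an inhibitor that sits on gp130 and its JAKs and curbs interleukin 6 and STAT3 signalling, was measured at chr11:117827480-117827539 (mm9, minus strand). Its level was 0.12, 0.50, 0.75 and 0.029 in AZD1480 tumours 1 to 4, and 1.65, 0.80, 0.93 and 1.38 in vehicle tumours 1 to 4. The highest AZD1480 tumour, replicate 3, lay just under the lowest vehicle tumour, replicate 2. The means were 0.35 ± 0.34 in AZD1480 tumours and 1.19 ± 0.39 in vehicle tumours (SD, n = 4 each). The difference was -0.84 ± 0.26 (limma's moderated SE; 95% interval -1.44 to -0.25), 1.79-fold lower, with an unadjusted p of 0.0114 and an adjusted p of 0.953 in limma. It was of like size on both slides, at -0.92 within slide 1 and -0.77 within slide 2. Without AZD1480 replicate 1 it was -0.77, and over all 8 fits that each left out 1 array it ran from -0.98 to -0.69.

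Stat3, whose protein is the main activator of Socs3 downstream of interleukin 6, differed by -0.90 ± 0.26 in limma, with an unadjusted p of 0.00939 and overlapping groups. Il6 itself did not pass the filter on dim probes. By the rule of highest Pearson correlation over the 8 arrays, the genes most like Socs3 were Xrcc4 (r = 0.965), Cdca7l (0.958), Mesp2 (0.940), Hltf (0.937) and Nubpl (0.935). Of 15435 genes ranked, 22 had r over 0.9. Arrays share treatments and slides, so these correlations only describe the 8 tumours. The difference of Xrcc4 was -0.19 ± 0.13 in limma and that of Mesp2, also among the most alike, -0.82 ± 0.32.

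Socs2 dampens growth hormone signalling and is a STAT5 target in liver and other tissues. Its 3 probes lie close together at chr10:94875066-94875125, chr10:94875187-94875246 and chr10:94875468-94875527 (mm9, minus strand), so they are repeated readings of the same tumours and not replicates. The probe printed in 10 spots, A_51_P107362, had levels of 0.86, 0.15, 0.20 and 0.41 in AZD1480 tumours 1 to 4, and -0.88, -1.60, -0.039 and 0.37 in vehicle tumours 1 to 4. Vehicle replicates 1 and 2, both on slide 1, were the low tumours. Vehicle replicate 4 lay inside the AZD1480 range, so the groups overlapped. The 10 spots of an array had an SD of 0.039 to 0.075, far below the spread between tumours.

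The mean Socs2 level by that probe was 0.40 ± 0.32 in AZD1480 tumours and -0.54 ± 0.88 in vehicle tumours (SD, n = 4 each). The difference was 0.94 ± 0.43 (95% interval -0.047 to 1.93, 1.92-fold), with an unadjusted p of 0.0593 and an adjusted p of 0.953 in limma. The other 2 probes gave 0.87 ± 0.47 (A_55_P1992834) and 0.89 ± 0.45 (A_55_P1992838). The 3 probes followed each other closely, with pairwise r of 0.988 to 0.998 over the 8 arrays. The difference by A_51_P107362 was 1.74 within slide 1 and 0.14 within slide 2. The slide by treatment interaction was -1.61 (slide 2 minus slide 1; limma unadjusted p = 0.0244, adjusted p = 0.993), a test added after the within-slide values had been seen. Each slide held 2 arrays of each group, so slide as a covariate could not move the difference. The unadjusted limma p of that fit was 0.0498. With array weights the difference was 0.48. Over the 8 fits that each left out 1 array it ran from 0.58 (without vehicle replicate 2) to 1.24 (without vehicle replicate 4). Without AZD1480 replicate 1 it was 0.79.

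**Figure D2:**
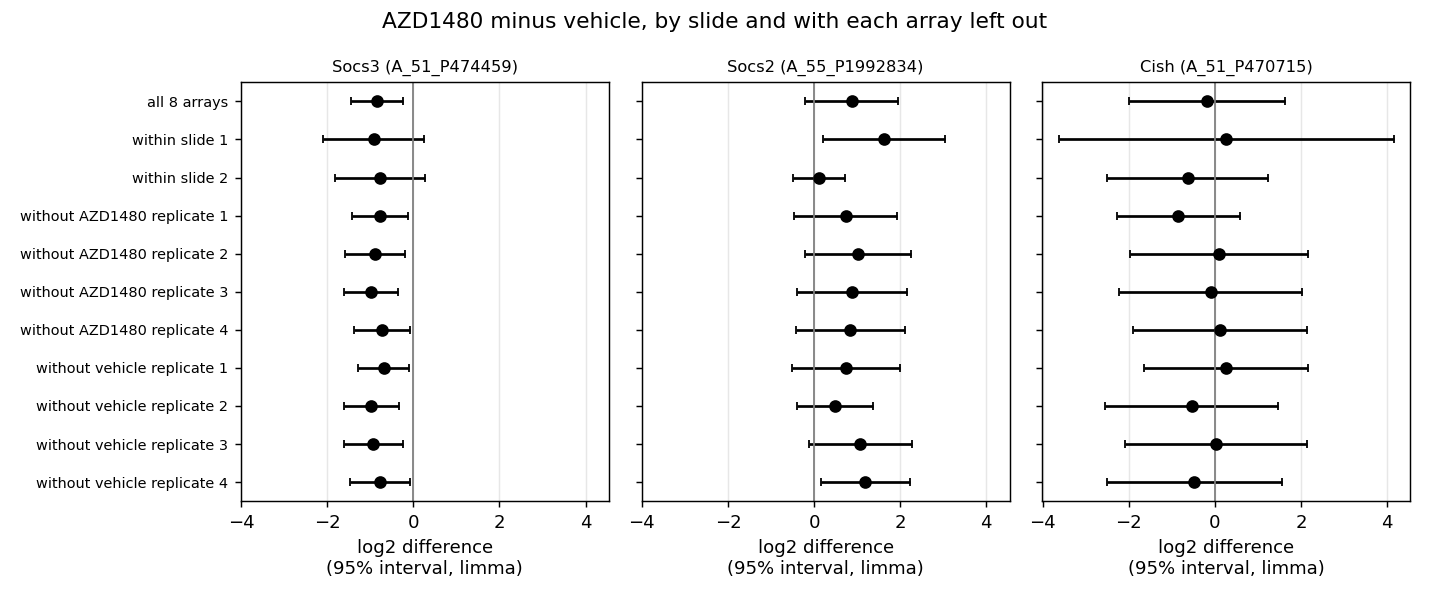
Log2 difference, AZD1480 minus vehicle, with its 95% limma interval, for selected members using all 8 arrays, within each slide and with each array left out in turn. Socs2 is shown by its brightest probe, A_55_P1992834, while the text gives these fits for A_51_P107362. The Socs3 difference stays between -0.98 and -0.69 in all of these fits, while Socs2 is near 0 within slide 2 and Cish lies on either side of 0.

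Cish, the founding member, binds the phosphorylated receptors of growth hormone, prolactin and interleukin 2 and is a classical STAT5 target. Its probe lies at chr9:107204196-107204255 (mm9, plus strand), and its window holds the 2 STAT palindromes printed above. The level was -0.31, -3.14, -2.56 and -3.21 in AZD1480 tumours 1 to 4, and -0.80, -3.18, -1.50 and -3.00 in vehicle tumours 1 to 4. The 3 high tumours were AZD1480 replicate 1 and vehicle replicates 1 and 3, and the other 5 were low, so high and low tumours occurred in both groups. The range over all 8 was 2.90, which is 7.47-fold, and 16.6% of all kept probes had a range at least as wide. The means were -2.30 ± 1.36 in AZD1480 tumours and -2.12 ± 1.16 in vehicle tumours (SD, n = 4 each). The difference was -0.18 ± 0.79 (95% interval -2.00 to 1.64, limma unadjusted p = 0.823, adjusted p = 0.987). The interval reaches beyond 2-fold in either direction, so a difference of that size is not excluded at this spread. Without AZD1480 replicate 1 the difference was -0.85 with an unadjusted limma p of 0.202. It was 0.27 within slide 1 and -0.63 within slide 2.

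The 3 tumours high in Cish were also the 3 highest in the mean level of the granulosa and luteal markers that passed the filter. That mean was 1.93, -3.23, -3.25 and -2.39 in AZD1480 tumours 1 to 4, and 0.72, -3.18, 1.02 and -3.44 in vehicle tumours 1 to 4. On the summed scale the list ran from 10.5 to 150 in AZD1480 tumours and from 11.6 to 59.3 in vehicle tumours. Of its 10 genes 6 passed the filter. Among the steroid and gonadotropin markers, Star was well above background on 8 arrays by 1 probe and 7 by another, and Hsd3b1 on 4. Both of these genes passed. Fshr, Cyp19a1, Cyp11a1 and Lhcgr did not pass, being well above background on 2 or 3 arrays each. AZD1480 replicate 1 and vehicle replicate 3 were among those arrays for each of the 4 genes. Inha, the inhibin alpha subunit of granulosa cells, was at 4.44, -3.09, -3.67 and -2.78 in AZD1480 tumours and at 2.00, -2.98, 1.56 and -4.18 in vehicle tumours. Amhr2, whose promoter drives the transgene, was at 6.83, 0.62, 0.43 and -0.75 in AZD1480 tumours and at 5.39, 0.55, 1.43 and 0.07 in vehicle tumours. Foxl2, a granulosa transcription factor, did not vary in this way and stayed between 3.27 and 3.65 in all 8 tumours. Vehicle replicate 3 also stood apart in adipocyte markers, of which 6 of 8 genes passed the filter. Their mean log2 level was 0.10 in that tumour and -5.90 to -3.84 in every other tumour. AZD1480 replicate 1 and vehicle replicate 1, also high in Cish, were at -5.28 and -3.84. The part of granulosa, luteal or adipose cells in the Cish level was not tested.

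**Figure D3:**
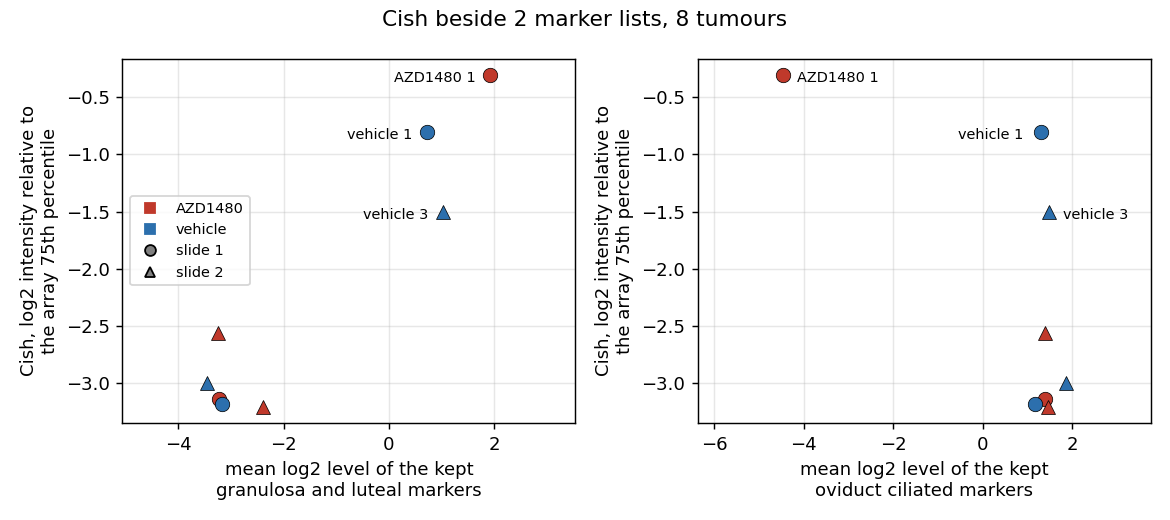
Scaled log2 level of Cish in each tumour against the mean log2 level of the kept markers of a cell type, in colour by group and shape by slide. In the granulosa and luteal panel AZD1480 replicate 1 and vehicle replicates 1 and 3 sit apart at the top right.

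The genes most like Cish over the 8 arrays were Gabra3 (r = 0.984), Ubqln2 (0.984), Me1 (0.983), Ppp1r13b (0.981) and Tmtc2 (0.976), and 204 of the 15435 genes ranked had r over 0.9. The 8 tumours fell into 3 high and 5 low for Cish, so these values describe that split. Gabra3 ran over 5.38 log2 units, Me1 over 4.24 and Tmtc2 over 5.34.

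Socs1, an inhibitor of JAK kinase activity that restrains interferon signalling, was measured at chr16:10783951-10784010 (mm9, minus strand). Its level was -1.00, -1.20, -1.10 and -1.31 in AZD1480 tumours 1 to 4, and -1.65, -1.36, -0.94 and -0.89 in vehicle tumours 1 to 4. All 4 AZD1480 tumours lay inside the vehicle range, whose low tumours were on slide 1 and whose high tumours were on slide 2. The means were -1.15 ± 0.13 in AZD1480 tumours and -1.21 ± 0.36 in vehicle tumours (SD, n = 4 each). The difference was 0.058 ± 0.21 (95% interval -0.42 to 0.54, limma unadjusted p = 0.789, adjusted p = 0.982). It was 0.41 within slide 1 and -0.29 within slide 2, and the interaction had a limma unadjusted p of 0.0617. Without AZD1480 replicate 1 it was 0.0056.

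Socs4 and Socs5 are a pair of closely related members best known for promoting turnover of the epidermal growth factor receptor. The Socs4 level, at chr14:47911161-47911220 (mm9, plus strand), was -1.91, -2.29, -2.20 and -1.80 in AZD1480 tumours 1 to 4, and -2.85, -2.64, -2.01 and -2.24 in vehicle tumours 1 to 4. The groups overlapped through vehicle replicates 3 and 4. The difference was 0.38 ± 0.23 (95% interval -0.15 to 0.91, limma unadjusted p = 0.135), at 0.64 within slide 1 and 0.12 within slide 2. The correlation of Socs4 with the 3 Socs2 probes over the 8 arrays was 0.817 to 0.834, as a description of tumours that share their slides.

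Socs5, at chr17:87536500-87536559 (mm9, plus strand), had levels of -2.10, -1.28, -1.58 and -1.73 in AZD1480 tumours 1 to 4, and -1.83, -1.75, -1.24 and -1.96 in vehicle tumours 1 to 4. Both the lowest and the second highest tumour belonged to the AZD1480 group, so the groups overlapped throughout. The difference was 0.020 ± 0.24 (95% interval -0.53 to 0.57, limma unadjusted p = 0.935), and it was 0.16 without AZD1480 replicate 1. Egfr, the receptor that both proteins are known to bind, was at -0.67 ± 0.29 with an unadjusted limma p of 0.0507.

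Socs6, which binds insulin receptor signalling proteins and Kit, had 3 probes on chromosome 18 (mm9), and all 3 had small negative differences with overlapping groups. These probes followed each other loosely, with pairwise r of 0.240 to 0.641 over the 8 arrays. Probe A_55_P1969251, at chr18:89038580-89038639, was at -2.51, -2.77, -2.47 and -2.95 in AZD1480 tumours 1 to 4, and at -2.42, -2.65, -2.52 and -2.43 in vehicle tumours 1 to 4. Its difference was -0.17 ± 0.16 (95% interval -0.55 to 0.21, limma unadjusted p = 0.335). The lowest tumour by this probe was AZD1480 replicate 4, while AZD1480 replicates 1 and 3 lay among the vehicle tumours. A_52_P135421, at chr18:89036691-89036750, differed by -0.21 ± 0.17, and A_55_P2034903, at chr18:89037298-89037357, by -0.37 ± 0.35. For the last of these 1 tumour set most of the value, since without vehicle replicate 4 it was -0.032, while without AZD1480 replicate 1 it was -0.23. Its processed intensity was 49.2 to 191 over the 8 arrays.

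Socs7, a member that shuttles to the nucleus and binds adaptors such as Nck, had the smallest range over the 8 arrays of the 12 probes. At chr11:97259763-97259822 (mm9, plus strand) its level was 1.56, 1.29, 1.52 and 1.24 in AZD1480 tumours 1 to 4, and 1.23, 1.17, 1.28 and 1.37 in vehicle tumours 1 to 4. The groups overlapped, and all 8 tumours lay within 0.39 log2 units. The difference was 0.14 ± 0.15 (95% interval -0.20 to 0.48, limma unadjusted p = 0.359), and it was 0.091 without AZD1480 replicate 1.

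**Figure D4:**
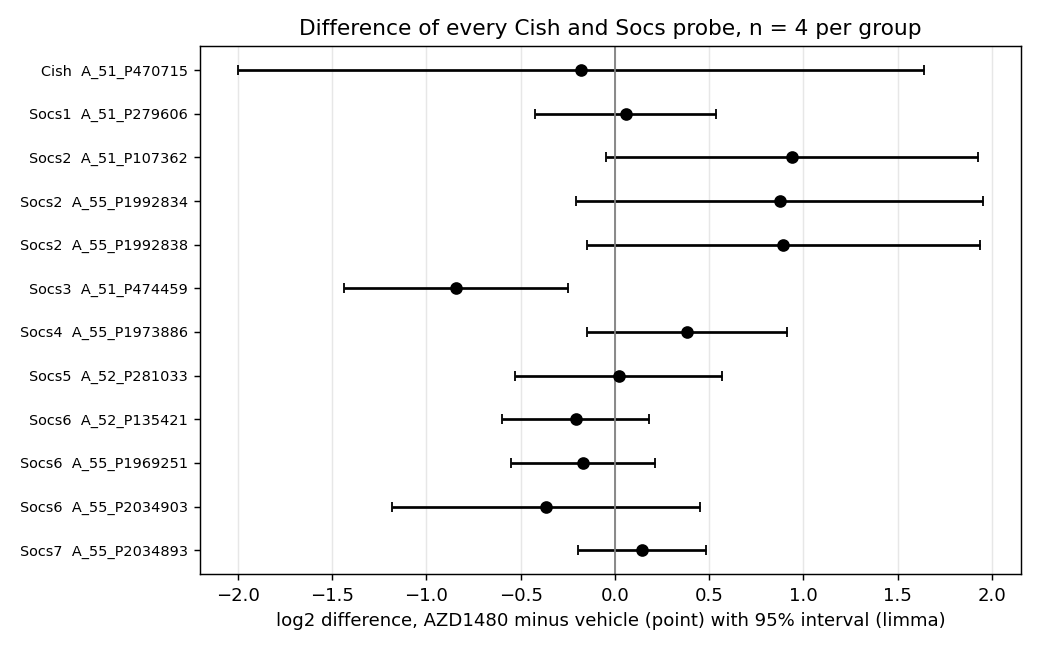
Log2 difference, AZD1480 minus vehicle, of all 12 probes, with the 95% limma interval and n = 4 per group. The Socs3 interval alone lies wholly on one side of 0, from -1.44 to -0.25, the Socs2 intervals reach just below 0, and the Cish interval is the widest.

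The other genes of the pathway are described by 9 lists, each gene by its brightest kept probe. Over all 22710 genes the median difference was 0.053, and 42.4% of the genes were lower in AZD1480 tumours. No listed gene passed limma's adjusted test. Of 10 JAK kinases and STAT factors, 5 were lower and 5 higher, with a median of -0.24. At an unadjusted p under 0.05 in limma, 4 of the 10 were lower and 0 higher, where 1.67% of all genes were lower and 1.92% higher. These were Stat3, Jak3 (-0.82 ± 0.28), Stat4 (-0.71 ± 0.27) and Stat2 (-0.53 ± 0.21), and Stat4 was detected on 2 of the 4 AZD1480 arrays. Without AZD1480 replicate 1 the median of this list was -0.22. Among the cytokine ligands only 6 of 20 passed the filter, and the smallest p was that of Ctf1, a gp130 cytokine (-0.29 ± 0.18, and -0.15 without AZD1480 replicate 1). The median of the 6 was 0.12, and -0.058 without AZD1480 replicate 1. Of the 21 cytokine receptors, 10 were lower and 11 higher with a median of 0.032, or -0.0012 without AZD1480 replicate 1. Osmr, the oncostatin M receptor, was at -1.61 ± 0.53 and -1.05 without AZD1480 replicate 1.

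Target genes of the STATs that induce SOCS genes were mixed. Of the 15 STAT3 targets, 12 were lower and 3 higher with a median of -0.27, where 42.4% of all genes were lower. At an unadjusted limma p under 0.05, 5 were lower, as were 1.67% of all genes. Of these 5, Stat3 and Osmr are already given. The median of the STAT3 targets was -0.61 within slide 1 and -0.077 within slide 2, and -0.19 when AZD1480 replicate 1 was left out. The other 3 STAT3 targets at that p were the transcription factor Cebpd (-1.34 ± 0.25), the secreted glycoprotein Lrg1 (-1.47 ± 0.43) and the metalloreductase Steap4 (-1.98 ± 0.65). Of the 10 kept STAT5 targets, 6 were lower and 4 higher with a median of -0.17. The sign of that median turned without AZD1480 replicate 1 (0.022), and it was -0.32 within slide 1 but 0.15 within slide 2. The cyclin D1 gene Ccnd1 (-1.58 ± 0.31) alone had an unadjusted p under 0.05. The kinase gene Pim1, on that list too, was at 0.67 ± 0.40.

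The partners of the SOCS box had differences above 0 in 9 of 9 genes, where 42.4% of all genes were lower. Their median was 0.17, beside 0.053 over all genes, and 0 of the 9 had an unadjusted limma p under 0.05. The smallest p were those of the cullin-RING partner Arih2 (0.30 ± 0.15), the neddylation enzyme Ube2f (0.25 ± 0.25) and the elongins Tceb1, now Eloc (0.19 ± 0.20), and Tceb2, now Elob (0.16 ± 0.17). Leaving out AZD1480 replicate 1 put Ube2f at 0.10, Tceb1 at 0.093 and Tceb2 at 0.060. The median of these 9 genes was 0.36 on slide 1 and -0.049 on slide 2, and leaving out AZD1480 replicate 1 gave 0.060. Of 23 other kept SOCS-box genes, 9 were lower and 14 higher, with a median of 0.12, or 0.070 without AZD1480 replicate 1. The ubiquitin ligase Neurl2 (0.74 ± 0.25), on that list, had an unadjusted limma p of 0.0180. Among 12 other negative regulators of the pathway, 4 were lower and 8 higher, and Usp18, a brake on the interferon receptor, was at -2.43 ± 0.74. Of 17 receptors and adaptors that SOCS proteins bind, 11 were lower and 6 higher with a median of -0.10, and none had an unadjusted p under 0.05. That median was -0.0012 without AZD1480 replicate 1.

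**Figure D5:**
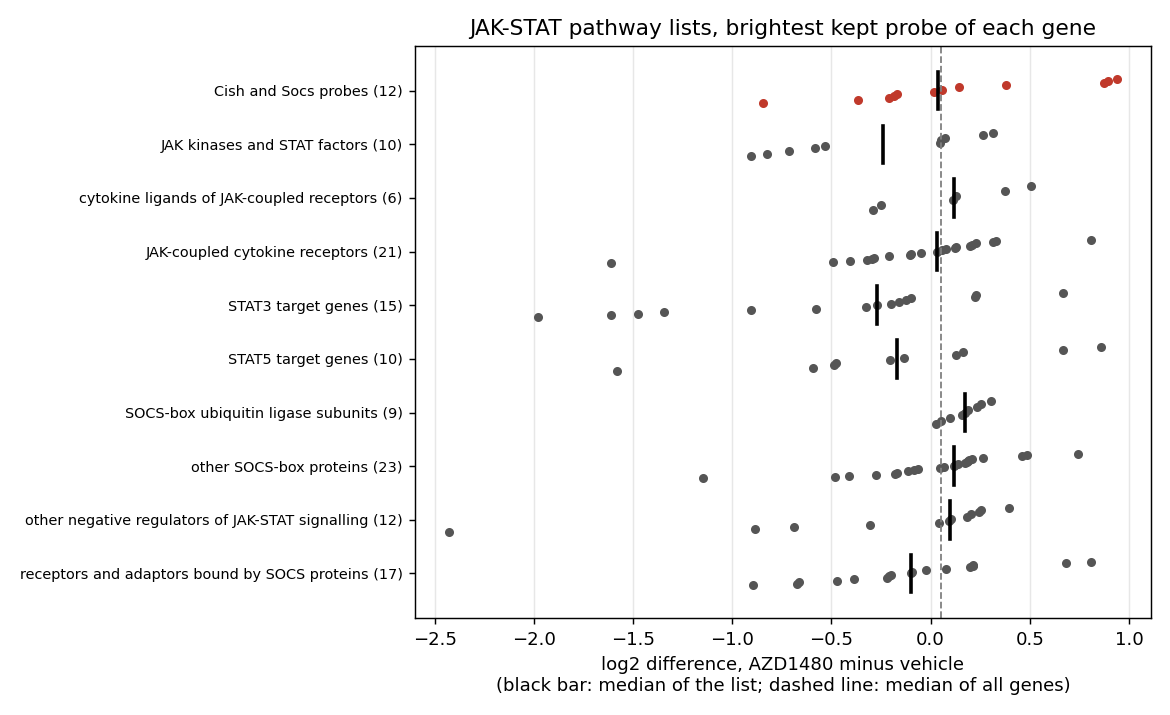
Log2 difference, AZD1480 minus vehicle, of each kept gene in the SOCS family and the 9 pathway lists, with a black bar for the list median and a dashed line for the median of all genes, 0.053. The 12 SOCS and Cish values span both sides of 0, with a median of 0.039.

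Markers of macrophages and monocytes, which carry SOCS transcripts as well, had a summed level of 13.8 to 62.1 in AZD1480 tumours and 30.4 to 34.9 in vehicle tumours, and 13 of 15 genes passed the filter. Cd163 and Ly6c2 did not pass. Of the 13 kept, 12 were lower and 1 higher in AZD1480 tumours, where 42.4% of all genes were lower. At an unadjusted limma p under 0.05, 3 were lower, as were 1.67% of all genes. In 2, all AZD1480 arrays lay below all vehicle arrays, as in 1.25% of kept probes. The mean log2 level was -1.95, -0.54, -0.13 and -0.34 in AZD1480 tumours 1 to 4, and -0.14, -0.27, -0.039 and 0.053 in vehicle tumours 1 to 4. The median difference of these markers was -0.54, and -0.10 without AZD1480 replicate 1. T and NK cell markers summed to 2.13 to 2.37 in AZD1480 tumours and 2.23 to 2.40 in vehicle tumours, with 10 of 15 genes kept. Their median difference was -0.37, and -0.11 without AZD1480 replicate 1. Fibroblast and stromal markers summed to 14.2 to 90.1 in AZD1480 tumours and 41.1 to 53.7 in vehicle tumours, with all 11 kept. Their median difference was -0.12, and 0.17 without AZD1480 replicate 1. Of the ovarian epithelial markers, 12 of 13 were lower in AZD1480 tumours, with a median difference of -0.47, and -0.29 without AZD1480 replicate 1. Of 10 endothelial markers, 7 were lower, 2 of them at an unadjusted limma p under 0.05, with a median of -0.27, and -0.23 without that array. Their summed level was 3.41 to 5.38 in AZD1480 tumours and 4.09 to 6.68 in vehicle tumours. The part of these cells in the Socs results was not tested.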

How the data were processed

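Total RNA of 8 tumours was hybridised to one-colour Agilent mouse arrays. Per the submitters' processing notes, Feature Extraction 9.5.3 (Agilent) quantified the scans. The deposited processed intensity of each spot is, per the file headers, background-subtracted and not scaled between arrays. The authors' deposited value table holds log2 values with the same median, 8.36, in all columns. Its columns and the arrays' raw mean intensities on a log2 scale had correlations of 0.996 to 1.000, its offset is unknown, and it served as an alternative.

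Log2 processed intensities were reduced by each array's 75th percentile over the 43020 spots that were not controls. A probe's value is the mean of its spots, those flagged as outliers excepted. Probes well above background on at least 4 of 8 arrays were kept, less 9 with no unflagged spot on some array. The test was limma's moderated test (version 3.58.1, R 4.3.3), two-sided, with treatment as the term, Benjamini-Hochberg adjustment over all 28329 kept probes and a threshold of 0.05. The script was tested on simulated data. SDs are over 4 arrays, the labels state separate mice, and the number of arrays limits the precision. A gene outside the family was represented by its brightest kept probe, named by RefSeq accession for 26055 probes and otherwise by the files. Probe coordinates are those of the files (mm9), and promoters are on another build, so the positions are not comparable. Exon and UTR annotation was not used here.

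The text names every family probe, up to 4 genes with the smallest p of each pathway list, and the 5 genes most correlated with Socs3 and with Cish. Markers and genes set beside a result, such as Inha, Amhr2, Foxl2, Il6 and Egfr, come from the same lists. The members and lists were chosen with earlier results of these data known. A gene and a pathway list are not reported here. Alternatives covered background correction, scaling, the deposited table, filters, outlier spots, 1 probe per gene name, slide, replicate number as a block, array weights and leaving out each array.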

Additional observations from a re-analysis of the deposited data

How the results depend on the processing

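No SOCS or Cish probe, listed gene or other kept probe passed limma's adjusted test in any of the 21 alternatives (0 calls in each). The count at an unadjusted p under 0.05 over all kept probes was 1030, and 622 to 2434 with 1 array left out (622 without vehicle replicate 1, 670 without vehicle replicate 3, 2434 without AZD1480 replicate 3). Of 248 recomputed probe values, 233 kept their direction and 15 reversed, all 15 in Cish, Socs1 or Socs5, and the cause was not tested. Part of the 233 could not move. Groups were balanced over slides and replicate numbers, no family spot was an outlier, and every family probe passed each filter. The differences with other filters, outlier spots kept, 1 probe per gene name, slide as a covariate or replicate block therefore equal the main ones. Cish reversed within slide 1 (0.27), without AZD1480 replicate 2 (0.097) or 4 (0.12) and without vehicle replicate 1 (0.26) or 3 (0.024). It ran from -0.85 to 0.26 with 1 array left out. Socs1 reversed within slide 2 (-0.29), with array weights (-0.11) and without vehicle replicate 1 (-0.088), and ran from -0.088 to 0.16 with 1 array left out. Socs5 reversed under median scaling (-0.0069), in the authors' table (-0.0065), within slide 2 (-0.057), without AZD1480 replicate 2 (-0.11) or 3 (-0.012) and without vehicle replicate 1 (-0.025) or 4 (-0.069), with a range of -0.11 to 0.17 over the fits with 1 array left out. The Socs3 difference ran from -0.98 to -0.69 over all 21, and its unadjusted limma p was above 0.05 only within slide 1 (0.0947) and slide 2 (0.107), which halve the samples. The count of family probes at an unadjusted limma p under 0.05 was 1, but 2 with normexp, the authors' table or slide as a covariate. It was 3 within slide 1, 0 within slide 2 and 4 without vehicle replicate 4. Where it was 2, A_51_P107362 of Socs2 joined Socs3. The 3 within slide 1 were the Socs2 probes, which repeat 1 gene, and the 4 were those and Socs3. Scaling moved the median of all kept probes between 0.029 and 0.086. After each group's mean was subtracted from every probe, the deviations of same-numbered samples correlated at 0.35, 0.37, 0.14 and -0.060. The numbers are therefore not taken as pairs. With replicate number as a block, 0 probes passed and 1272 had an unadjusted p under 0.05, and the Socs3 difference was -0.84 with an unadjusted limma p of 0.0425. By these deviations AZD1480 replicates 1 and 2 correlated best with the same vehicle number, 3 with 4 and 4 with 2. The numbers also mark the slide. With 4 arrays per group, the width of the intervals limits which differences could be seen.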
